A study of Mus musculus with 2 samples.

Results

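The miR-181 family of the mouse consists of 6 microRNA (miRNA) genes, which were taken by name and lie as pairs in 3 clusters. Mir181a-1 and Mir181b-1 share a locus on chromosome 1, Mir181a-2 and Mir181b-2 share one on chromosome 2, and Mir181c and Mir181d share one on chromosome 8. All 6 were found among the 1973 miRNA genes with counts. The material was total RNA from kidneys of embryonic B6NCrl mice at 15.5 days of development, of both sexes, pooled from 78 embryos for replicate 1 and 62 embryos for replicate 2. Small RNA under 30 nt was sequenced, and the 2 libraries form 1 group of healthy tissue. There is no contrast of conditions, so the comparisons are between the 6 genes and between the 2 pools, and no p-value for a condition exists.

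A miRNA gene is transcribed as part of a longer RNA, which is cut to a hairpin and then to a mature strand of the 5′ or the 3′ arm. The mature strand pairs with messenger RNAs mainly through its seed, the bases 2 to 8, so members with a shared seed have overlapping targets. The miR-181 miRNAs are best known from developing T cells, where miR-181a sets the sensitivity of antigen receptor signalling. In endothelium miR-181b dampens NF-kB signalling, and miR-181c has been found in mitochondria of rat heart.

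The mature sequences are shown first because they decide which reads can be assigned to 1 gene. They are RefSeq sequences on GRCm38.p6, written 5′ to 3′ with the seed in capitals. The 5′ arms share 1 seed, which in the RefSeq table occurs in no miRNA outside the family.
miR-181a-5p: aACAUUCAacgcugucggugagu
miR-181b-5p: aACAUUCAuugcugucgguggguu
miR-181c-5p: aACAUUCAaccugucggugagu
miR-181d-5p: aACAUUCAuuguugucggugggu
After the seed they fall into pairs that run across the clusters. Counted from 1 at the 5′ end, miR-181b-5p differs from miR-181a-5p by A9U, C10U and A21G and has 1 more base. The sequence of miR-181d-5p differs from miR-181b-5p by C12U over the 23 bases they share in length. That of miR-181c-5p equals miR-181a-5p with 1 base left out, and the first 10 bases of both are the same. Each cluster thus joins a gene of the a or c kind with one of the b or d kind.

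The 3′ arms differ more and have 4 seeds. One is shared by the a-1 and c arms, and another by both b arms.
miR-181a-1-3p: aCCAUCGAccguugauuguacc
miR-181c-3p: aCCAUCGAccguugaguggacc
miR-181a-2-3p: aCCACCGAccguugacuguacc
miR-181b-1-3p: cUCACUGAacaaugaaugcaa
miR-181b-2-3p: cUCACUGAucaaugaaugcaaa
miR-181d-3p: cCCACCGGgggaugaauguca
No 3′ arm is repeated at a second locus. The arm of Mir181a-2 differs from that of Mir181a-1 by U5C, inside the seed, and U16C. The arm of Mir181c differs from that of Mir181a-1 by U16G and U19G. The arms of the 2 b genes differ by A9U and by 1 base of length.

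Mature miR-181a-5p is identical at 2 loci, Mir181a-1 and Mir181a-2, and miR-181b-5p is identical at Mir181b-1 and Mir181b-2. The hairpins are printed to show how far the identity runs, with the mature sequences of both arms in capitals.
Mir181a-1: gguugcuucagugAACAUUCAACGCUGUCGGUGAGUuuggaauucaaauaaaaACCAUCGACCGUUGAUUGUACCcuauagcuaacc
Mir181a-2: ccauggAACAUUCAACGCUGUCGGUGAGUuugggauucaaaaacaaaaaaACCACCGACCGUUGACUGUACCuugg
Mir181b-1: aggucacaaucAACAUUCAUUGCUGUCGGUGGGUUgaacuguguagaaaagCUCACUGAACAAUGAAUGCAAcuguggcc
Mir181b-2: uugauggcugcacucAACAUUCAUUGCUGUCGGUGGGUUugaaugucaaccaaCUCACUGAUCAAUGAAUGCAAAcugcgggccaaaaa
Mir181d: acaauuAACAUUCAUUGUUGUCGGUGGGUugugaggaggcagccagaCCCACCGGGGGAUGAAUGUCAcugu
The a hairpins share an unbroken stretch of 28 nt, which holds the 5′ mature sequence with 1 base before it and 4 after it. The b hairpins share 26 nt, with 2 bases before the mature sequence and 0 after it. In windows of 20 nt, 9 of 68 windows of Mir181a-1 and 9 of 57 of Mir181a-2 occurred in the other a hairpin. For the b hairpins these were 7 of 61 windows of Mir181b-1 and 7 of 70 of Mir181b-2. In the Mir181d hairpin, 0 of 53 windows occurred in another miRNA hairpin of the table. The hairpin of Mir181c was not analysed here, neither searched nor among those searched against. In the 4 a and b hairpins the shared windows covered the 5′ arm and not the 3′ arm.

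**Figure D1:**
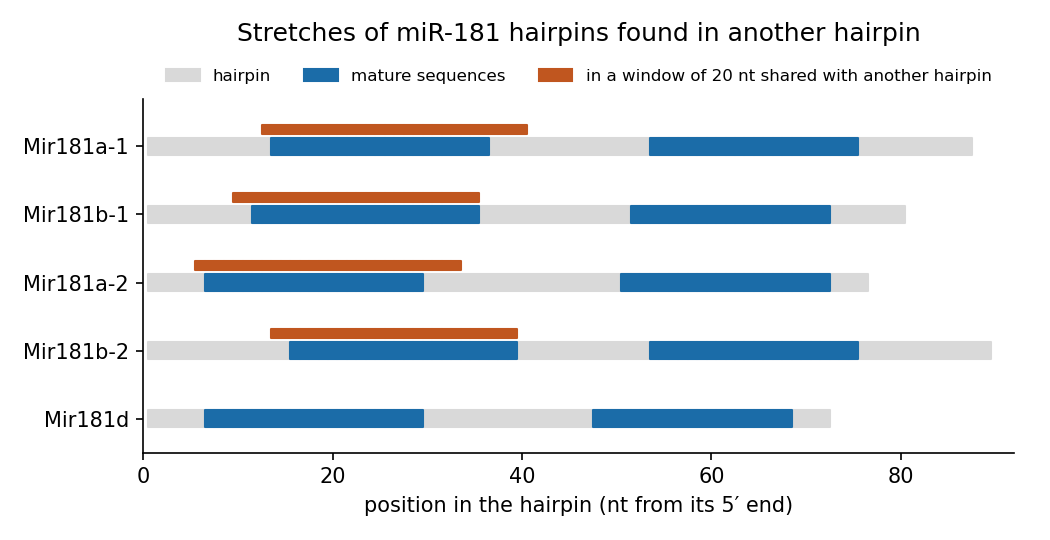
Positions along 5 miR-181 hairpins in nt from the 5′ end (x axis), with the hairpin in grey, the mature sequences in blue and bases within a window of 20 nt shared with another hairpin in orange. The orange stretch is 28 nt in both a hairpins and 26 nt in both b hairpins, lies over the 5′ arm in each, and is missing from Mir181d.

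This identity bears on every count of the a and b genes. The deposited files set apart reads matching several loci, 3901906 in replicate 1 and 3222867 in replicate 2, and do not say which genes they match. That is 54.3 and 60.4 times the 71856 and 53315 reads counted for the whole family. A read lying wholly in a shared stretch cannot be given to 1 of the copies. The whole of miR-181a-5p and of miR-181b-5p lies in such a stretch. Reads of exactly these sequences are therefore missing from the counts of the 4 a and b genes, which can be too low by an unknown amount. What was counted for them are reads that reach outside the stretch, among them those of the 3′ arm. The 5′ sequences of c and d have no second locus among the RefSeq sequences, so their reads can be counted. Counts are per hairpin, and the arms are not told apart. Levels between genes are therefore compared as counted reads, not as amounts of mature miRNA.

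The genes have these places in mm10 (GRCm38), taken from GENCODE M21 by gene identifier. Mir181a-1 (ENSMUSG00000065565.1, chr1:137966455-137966541, plus strand) lies in an intron of the noncoding gene Gm4258, and its 3′ end overlaps an exon of the noncoding RNA A430106G13Rik. Mir181b-1 (ENSMUSG00000065458.1, chr1:137966639-137966718, plus strand) begins 97 bp further on and overlaps the same exon. Mir181a-2 (ENSMUSG00000065423.1, chr2:38852735-38852810, plus strand) and Mir181b-2 (ENSMUSG00000065578.1, chr2:38853830-38853918, plus strand) are 1019 bp apart. Both lie opposite to an intron of Nr6a1, which encodes an orphan nuclear receptor. Mir181c (ENSMUSG00000065483.1, chr8:84178873-84178961, minus strand) and Mir181d (ENSMUSG00000076338.1, chr8:84178716-84178787, minus strand) are 85 bp apart. An intron annotated to Nanos3, which encodes an RNA-binding protein of germ cells, spans both on their own strand. The position of Mir181c comes from version 2 of its gene model, while the files count version 1.

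The libraries held 7434182 (replicate 1) and 5863293 (replicate 2) reads on the own strand of miRNA genes, and values below are scaled to a total of 1000000 of these (CPM). Lists of marker miRNAs were used to check the labelled tissue. The kidney and Hox-cluster list summed to 268314 and 236981 CPM with 5 of 5 members present (at least 1 CPM in both libraries). Most of this sum came from Mir10a (167241 and 140739 CPM) and Mir10b (65318 and 57839 CPM), so it is mainly a level of Hox-cluster genes. Mir196b stood at 26095 and 24366 CPM, Mir30a at 9427 and 13870.5 CPM and Mir204 at 234 and 167 CPM. The epithelial list summed to 24821 and 21320 CPM with 5 of 5. The endothelial gene Mir126a stood at 49708 and 47805 CPM, and the smooth muscle and stroma list at 28716 and 33867 CPM with 4 of 4 present. Lists of other cell types were lower. The 3 leukocyte genes measured summed to 619 and 700.1 CPM, the 2 erythroid genes to 339 and 466 CPM, the neural list to 194 and 302 CPM and the muscle list to 959 and 659 CPM. Mir122 of liver stood at 319 and 628 CPM and the 2 endocrine genes at 1301 and 1767 CPM. The neural genes Mir124a-1, Mir124a-2, Mir124a-3 and Mir9-2 and the muscle genes Mir1a-1 and Mir133a-1 had 0 reads, and several of these have sequence copies.

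The 6 miR-181 genes together held 0.967% of counts in replicate 1 (95% exact Clopper-Pearson interval 0.960 to 0.974) and 0.909% in replicate 2 (0.902 to 0.917). These intervals, like all those given here, cover counting error only. All 6 genes had over 100 reads in each library, and 0 reads lay on the opposite strand of any of them, which allows up to 3 reads per library.

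The c/d cluster carried most of the family's counted reads. It supplied 73.0% of them in replicate 1 (interval 72.6 to 73.3) and 75.8% in replicate 2 (75.5 to 76.2). The a-1/b-1 cluster supplied 19.1% (18.8 to 19.4) and 11.9% (11.6 to 12.1), and the a-2/b-2 cluster 7.94% (7.74 to 8.14) and 12.3% (12.03 to 12.6). Over both libraries the shares were 74.4% ± 2.03, 15.5% ± 5.12 and 10.1% ± 3.09 (SD, n = 2 each). The lead of c/d was far larger than the spread between the pools. The order of the other clusters was not the same in both pools, with a-1/b-1 at 1846 CPM and a-2/b-2 at 767 CPM in replicate 1, and a-1/b-1 at 1079 CPM and a-2/b-2 at 1119 CPM in replicate 2. Since c and d repeat neither mature arm elsewhere in the table and a and b repeat the 5′ arm, the clusters were counted over unlike parts. This division holds for counted reads only and does not give amounts of mature miRNA.

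**Figure D2:**
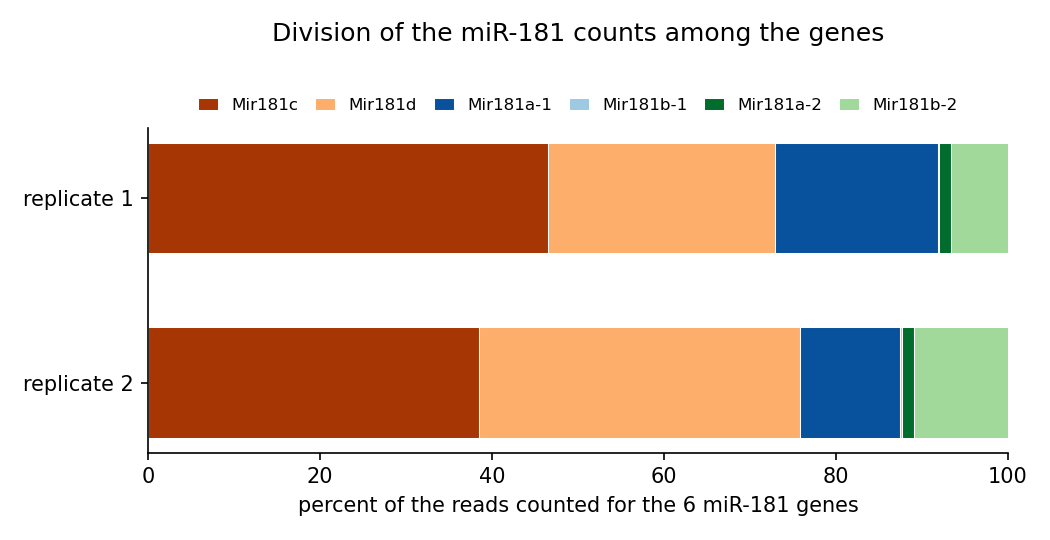
Percent of the counted miR-181 reads that each of the 6 genes supplied (x axis), 1 bar per library. Mir181c and Mir181d together take 73.0% in replicate 1 and 75.8% in replicate 2, and the share of Mir181a-1 is larger in replicate 1 (19.0%) than in replicate 2 (11.6%).

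Mir181c was the highest of the 6. It had 33451 reads in replicate 1 and 20539 in replicate 2, or 4499.6 and 3503 CPM. Its mean of 4001 ± 705 CPM (SD, n = 2) put it at rank 37 of all miRNA genes. Mir181d, the other gene of this cluster, had 18978 and 19892 reads, or 2553 and 3393 CPM, and ranked 51. In replicate 1 Mir181c had 1.76 times the reads of Mir181d (interval 1.73 to 1.79), and in replicate 2 it had 1.03 times as many (1.01 to 1.05). Mir181c was thus higher in both pools, with a near-equal count in replicate 2.

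In the chromosome 1 cluster the counts were far apart. Mir181a-1 had 13617 and 6195 reads, or 1832 and 1057 CPM, at rank 72. Mir181b-1, the lowest of the family, had 106 and 129 reads, or 14.3 and 22.001 CPM, at rank 251. In replicate 1 Mir181a-1 had 128 times the reads of Mir181b-1 (interval 106 to 157), and in replicate 2 it had 48.0 times as many (40.3 to 57.6). The genes are 97 bp apart and on the same strand, so their counted levels differed widely in spite of a common locus. Reads of exactly miR-181a-5p or miR-181b-5p are not in these counts, so the ratios do not compare amounts of mature miRNA.

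In the chromosome 2 cluster the b gene was the higher one. Mir181b-2 had 4758 and 5829 reads, or 640.02 and 994 CPM, at rank 89. Mir181a-2 had 946 and 731 reads, or 127 and 124.7 CPM, at rank 165. Its reads were 5.03 times those of Mir181a-2 in replicate 1 (interval 4.69 to 5.399), against 7.97 times for replicate 2 (7.38 to 8.62). Among the genes with copies, the locus on chromosome 1 thus had the more counted reads for the a genes and the locus on chromosome 2 for the b genes. Reads of exactly the 5′ sequence that the copies share are not in these counts.

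**Figure D3:**
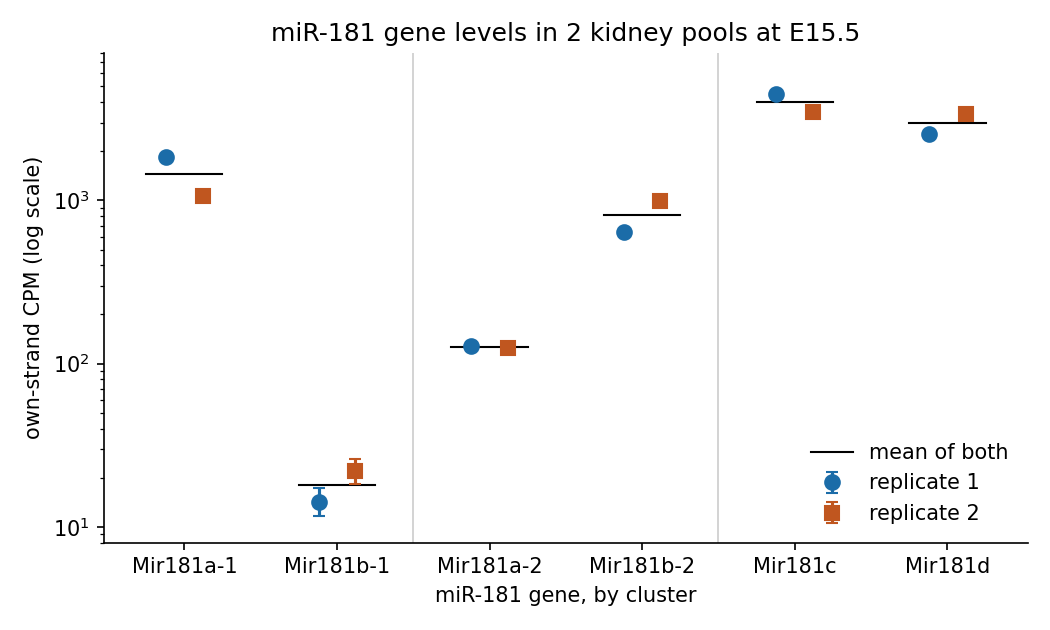
Own-strand level in CPM (log scale, y axis) of the 6 miR-181 genes by cluster, with replicate 1 as circles, replicate 2 as squares, bars for 95% exact binomial intervals and a line at the mean. Levels run from 14.3 CPM for Mir181b-1 to 4499.6 CPM for Mir181c, and the ranges of the 6 genes over the pools do not overlap.

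The order Mir181c, Mir181d, Mir181a-1, Mir181b-2, Mir181a-2, Mir181b-1 was found in both pools, and no 2 genes overlapped in their ranges. Not every step exceeds the spread between pools. The means less and plus 1 SD overlapped for Mir181c (3297 to 4706 CPM) and Mir181d (2379 to 3567 CPM), and for Mir181a-1 (896 to 1992 CPM) and Mir181b-2 (567 to 1067 CPM). The other 3 steps were larger than these spreads. With 2 libraries a gene, an exact two-sided unpaired permutation test of any step could not go below p = 0.333, so none was run.

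The gene copies that hold an identical mature sequence differed in count by 11.5 times for miR-181a and 45.1 times for miR-181b, as ratios of mean CPM. Reads of exactly that sequence match both copies and are not in these counts. The ratios therefore do not measure how much of the identical mature miRNA each copy gave, here or in the pairs below. Unequal copies were found in other families too. Of 24 listed pairs of paralogous miRNA genes, 19 had both genes counted and a mature sequence in common in the RefSeq table, and their ratio of the higher to the lower copy ran from 1.13 to 45.7 with a median of 3.73. In 5 of the 19 the ratio was at least that of miR-181a, and in 1 it was at least that of miR-181b. The 5 pairs with the highest summed level were Mir92-1 over Mir92-2 at 24.3 times, Mir196a-2 over Mir196a-1 at 45.7 times, Mir16-1 over Mir16-2 at 4.65 times, Mir125b-1 over Mir125b-2 at 1.13 times and Mirlet7c-2 over Mirlet7c-1 at 1.24 times. An imbalance of the size seen for miR-181a is therefore not particular to miR-181, while that of miR-181b was reached by the Mir196a pair only. Among the 5 pairs with a ratio of at least that of miR-181a, the lower copies Mir194-1 (14 and 13 reads), Mir103-1 (22 and 16) and Mir199a-1 (25 and 17) had few reads.

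The pools differed in how the family was made up more than in its total. The family sum was 1.06 times higher in replicate 1, a log2 ratio of replicate 1 over replicate 2 of 0.09 (interval 0.07 to 0.10), while single genes moved in both directions. Mir181a-1 was 1.73 times higher in replicate 1 (log2 0.79, interval 0.75 to 0.84), and Mir181c was 1.28 times higher (0.36, 0.34 to 0.39). Mir181a-2 had a log2 ratio of 0.03 with an interval of -0.11 to 0.17, which includes equal levels. All 3 genes of the b and d kind were lower in replicate 1. Mir181b-2 had a log2 ratio of -0.64 (-0.69 to -0.58), Mir181b-1 of -0.63 (-1.01 to -0.24) and Mir181d of -0.41 (-0.44 to -0.38).

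Past a fold of 1.5 in either direction were 3 of the 6 genes, Mir181a-1, Mir181b-1 and Mir181b-2, against 15.9% of the 264 genes that averaged 100 or more reads a library. The median absolute log2 ratio was 0.52 over the 6 genes and 0.25 over the 264. Mir181a-1 had the highest ratio of replicate 1 over replicate 2 of all 264. Among genes averaging fewer than 100 reads higher ratios occurred, such as a log2 ratio of 2.36 for Mir133b with 91 and 14 reads. Only 1.14% of the 264 genes were past 1.5-fold towards replicate 1 and 14.8% towards replicate 2, where Mir181b-1 and Mir181b-2 fell. The median of all 264 genes was -0.13, which TMM scaling moved to -0.002. With TMM scaling Mir181b-1 stood at -0.50 and Mir181b-2 at -0.51, no longer past 1.5-fold, which left 1 of the 6 genes past it, against 14.4% of the 264. Under this scaling 10 genes were past it towards replicate 1 and 28 towards replicate 2, in place of 3 and 39. All 6 directions were kept under TMM scaling and DESeq2 size factors.

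**Figure D4:**
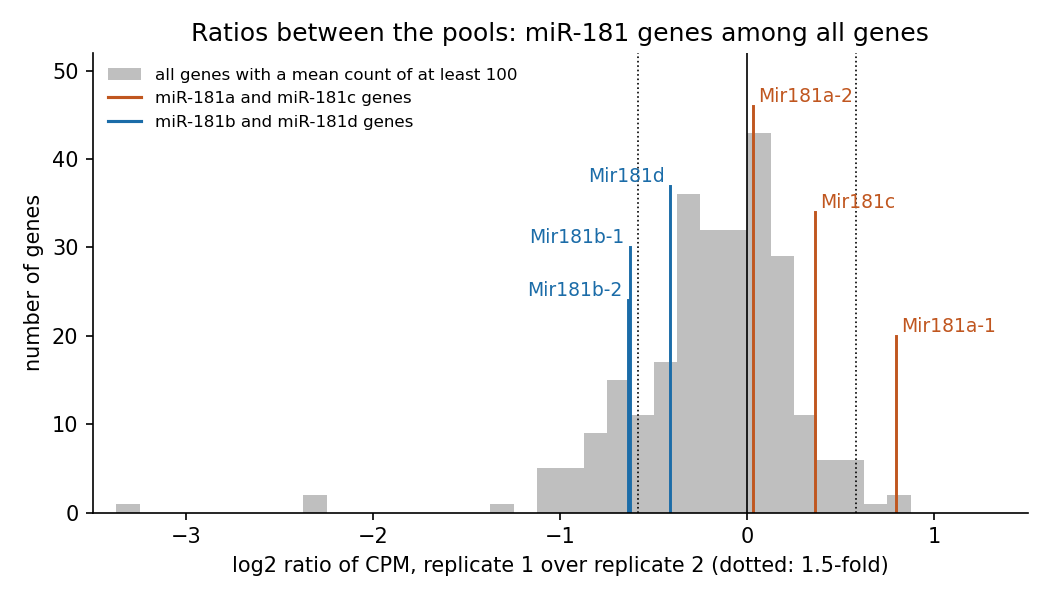
Number of genes (y axis) by log2 ratio of CPM of replicate 1 over replicate 2 (x axis) for the 264 genes averaging 100 or more reads, with miR-181a and miR-181c genes marked in orange, miR-181b and miR-181d genes in blue and 1.5-fold dotted. The orange genes lie at 0.03 to 0.79 and the blue ones at -0.64 to -0.41; heights of the marks carry no value.

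Grouped by sequence kind instead of by cluster, the difference between the pools was plain. This grouping was chosen after the values were seen and is given without a test. The a and c genes held 66.8% of the family's reads in replicate 1 (interval 66.5 to 67.2) and 51.5% in replicate 2 (51.1 to 51.9), and the b and d genes held the rest. Mir181b-1 and Mir181b-2, on different chromosomes, had similar ratios between pools, and the reads of Mir181b-2 were 44.9-fold those of Mir181b-1 in replicate 1 (interval 37.03 to 54.9) and 45.2-fold in replicate 2 (37.95 to 54.2). For the a copies this did not hold, with Mir181a-1 over Mir181a-2 at 14.4-fold (interval 13.5 to 15.4) in replicate 1 and 8.47-fold (7.85 to 9.16) in replicate 2.

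Neighbours in a miR-181 cluster moved apart between the pools. This measure does not depend on the library totals, since both genes of a pair share them. The ratio of Mir181a-1 to Mir181b-1 was 2.68 times larger in replicate 1 than in replicate 2, that of Mir181c to Mir181d 1.71 times and that of Mir181a-2 to Mir181b-2 1.59 times. All 3 pairs were thus past 1.5-fold, against 22.1% of the 95 pairs of neighbouring miRNA genes within 10 kb on 1 strand in which both genes averaged 100 or more reads. The median of the 95 was 1.255-fold. Mir181a-1 with Mir181b-1 had the largest difference of the 95 pairs, Mir181c with Mir181d ranked 13 and Mir181a-2 with Mir181b-2 ranked 16. With genes averaging 10 or more reads admitted, Mir181a-1 with Mir181b-1 ranked 3 of 108 pairs, and its size rests on the 106 and 129 reads of Mir181b-1. The side of 1 on which a ratio falls does depend on the totals. In all 3 pairs the ratios lay on opposite sides of 1, against 42.1% of the 95. With TMM scaling this held for the 3 pairs and 41.1% of the 95. Each miR-181 cluster joins the a or c kind with the b or d kind. The opposite sides therefore restate the split by sequence kind given above and are not a separate finding. The sizes of the differences come from the same gene ratios. For Mir181a-2 the side is within counting error.

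**Figure D5:**
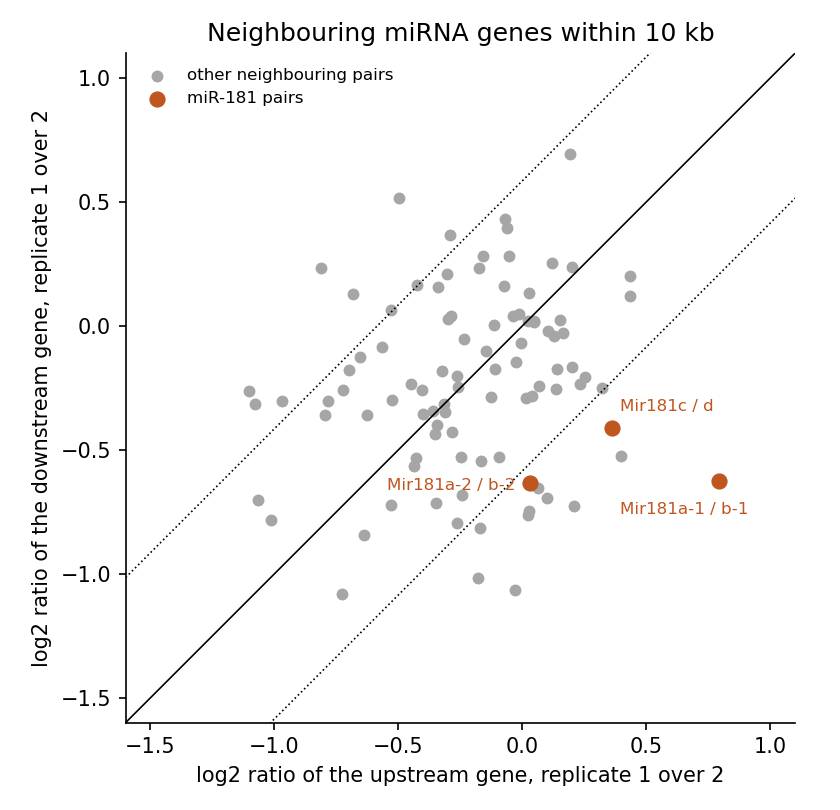
The log2 ratio of replicate 1 over replicate 2 of the upstream gene (x axis) against that of the downstream gene (y axis) for 95 neighbouring miRNA gene pairs, with miR-181 pairs in orange, equality as a solid line and a 1.5-fold difference dotted. The 3 miR-181 pairs lie below the lower dotted line, with Mir181a-1 and Mir181b-1 the farthest from the solid line.

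Some marker lists also differed between the pools. The leukocyte sum had a log2 ratio of replicate 1 over replicate 2 of -0.18, a little below the median of -0.13 over the 264 genes. Of its genes, Mir223 stood at 393 CPM in both pools, while Mir155 (216 and 294 CPM) and Mir150 (10.2 and 12.8 CPM) were lower in replicate 1. The liver gene stood at -0.98, and the neural sum at -0.64, the erythroid sum at -0.46 and the endocrine sum at -0.44 were also below that median. The neural genes Mir137 (-0.79) and Mir128-1 (-0.36) were below it, as were the erythroid genes Mir451a (-0.54) and Mir144 (-0.17). Mir9-3 of the neural list, with 19 and 6 reads, was above the median at 1.32. The epithelial sum at 0.22 and the muscle sum at 0.54, which is Mir206 alone, were above it. So were the kidney and Hox-cluster sum at 0.18 and Mir126a at 0.06, while the smooth muscle and stroma sum at -0.24 was below it. In the kidney and Hox-cluster list, Mir10a (0.25), Mir10b (0.18), Mir196b (0.10) and Mir204 (0.49) were above the median. Its gene Mir30a was below the median at -0.56. The part of the marker lists in the ratios of the miR-181 genes was not tested. In whole tissue, fewer cells of a type and less RNA per cell cannot be told apart.

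The genes whose levels over the 2 libraries were most like those of each member were found by the distance of log2(CPM + 1). With 2 libraries this likeness is little more than a shared level. Mir181c was nearest to Mir200b, an epithelial miRNA at 4520 and 3348 CPM, at a distance of 0.07, and then to Mir296 at 0.15. Mir181d was nearest to Mir196a-2 of a Hox cluster at 0.08, and then to Mir22 at 0.12. Mir181a-2 was nearest to Mir148b at 0.05 and Mir135b at 0.20, Mir181b-1 to Mir3072 at 0.09 and Mir486 at 0.13, and Mir181b-2 to Mir301 at 0.24 and Mir455 at 0.28. Mir181a-1 had the farthest nearest gene of the 6, Mir484 at 0.34, followed by Mir467c at 0.41.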

How the data were processed

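For each library the authors deposited raw read counts of miRNA genes, 1 column for both strands together and 1 for either strand. According to the deposited notes the reads had been aligned to mm10 and counted with GENCODE M4. For the aligner and counting program, names and versions were not given in the sources used here. Own-strand counts were scaled to their total over all miRNA genes, as CPM or percent. Lines of unmapped reads, reads matching several loci (27.1% and 26.6% of reads) and reads in no gene were left out of library sizes. Identifiers were matched without version to GENCODE M21, which named 1894 genes, and sequences came from RefSeq. Intervals are 95% exact binomial ones. Ratios between libraries compare 1 library with 1 and have no p-value; p-values for conditions cannot be had from 1 group. The libraries are labelled as biological replicates.

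Named genes are the 6 members, the 2 genes nearest in level to each, genes overlapping them, listed pairs of paralogs (the 5 highest with values) and marker genes. Members and lists were chosen with earlier results of these data known. Mir101a with Mir101b and Mirlet7a-1 with Mirlet7a-2 were listed but have no mature sequence in common in the table. Alternatives were TMM scaling (edgeR 4.0.16) and DESeq2 1.42.0 size factors in R 4.3.3, other totals, strands, filters, folds and window lengths, and each replicate left out. Python 3.11.15 with numpy 2.4.6, pandas 2.3.3, scipy 1.17.1 and matplotlib 3.10.9 was used. The ratio and window steps were tested on simulated data.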

Additional observations from a re-analysis of the deposited data

How the results depend on the processing

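The family share of 0.938% became 1.11% with Mir10a left out of the total, 0.577% with all mapped reads as the total and 0.697% without the 4 members that share a mature sequence, each by construction of the alternative. It moved by less than 1 SD under TMM scaling, DESeq2 size factors and both strands. Leaving out 1 of 2 libraries leaves the value of the other, and the cluster shares cannot change with the strand since no opposite-strand read was counted, so neither bears on stability. The 42 of 264 genes past 1.5-fold between the pools (15.9%) became 84 of 378 (22.2%) when genes averaging 10 or more reads were tested. They became 224 of 592 (37.8%) when every gene with reads in both libraries was tested. Each time 3 of the 6 members were past 1.5-fold. With a fold of 2 the 42 genes became 9 of 264, and 0 of the 6 members passed. Past 1.5-fold ceased to hold for Mir181b-1 and Mir181b-2 under TMM scaling (-0.50 and -0.51), DESeq2 size factors (-0.47 and -0.48) and all mapped reads as the total (-0.57 and -0.58), and for Mir181b-1 with Mir10a left out (-0.58). No direction turned round among the alternatives run. The 21 neighbouring pairs past 1.5-fold became 10 of 51 among genes averaging 1000 or more reads, which Mir181b-1 and Mir181a-2 do not reach, a filter chosen after seeing the data like those of 10 reads and of 50 kb. No paired analysis of conditions was possible because the series has 1 group and no contrast. Ratios between genes of a cluster were taken within each library. Mir181b-1, with 106 and 129 reads, is the member that depth limits most.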
